A study of Mus musculus with 6 samples.

Results

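The insulin-like growth factor (IGF) genes described here were 10 of the 39179 genes listed in the RNA-seq table, chosen by symbol: the ligands Igf1 and Igf2, the binding proteins Igfbp2 to Igfbp7, and the insulin receptor substrate adaptors Irs1 and Irs2. RNA came from Ocy454 cells, a mouse line with properties of osteocytes, the cells embedded in bone matrix. A single-cell subclone was used, so all 6 libraries derive from 1 clone. Cells grew to confluence at 33 °C, stayed for 14 days at 37 °C, and then received vehicle (PBS with 25 mM HCl), 1 nM PTH (parathyroid hormone, as its 1-34 peptide) or 0.5 µM YKL-05-093, a compound that blocks salt-inducible kinases (SIKs), for 4 h. The labels of these samples name that vehicle, while the study's methods give DMSO stocks for compounds used in culture, so the solvent of each condition is uncertain. Each condition had 2 libraries, and the comparisons ask how far the kinase inhibitor acts on transcripts as the hormone does.

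IGF ligands are secreted growth factors that bind a receptor tyrosine kinase on the cell surface. IGF binding proteins hold the ligands outside the cell and control how much reaches the receptor, and proteases release the ligand again by cleaving them. IRS proteins are docking adaptors inside the cell that link the activated receptor to phosphoinositide 3-kinase and AKT. In bone, IGF1 is made by cells of the osteoblast lineage, is stored in the matrix and is known as a mediator of the anabolic action of PTH, which signals through cyclic AMP.

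Values are RPKM, read numbers corrected for the length of the gene and the size of the library, so levels of different genes can be set side by side as far as the lengths are right. How the lengths were taken is not stated. The lengths behind the values were 4022 bases for Irs2, 7999 for Igf2 and 4730 for Igfbp5, against 6323, 5723 and 6006 bases of merged exons in GENCODE, while the other genes here differed by little. Orders and ratios of different genes rest on these lengths, and comparisons of conditions within a gene do not. Library totals ran from 17505798 to 27983585 reads. Between the vehicle libraries the median absolute log2 difference per gene was 0.333, against 0.108 between the PTH libraries and 0.103 between the YKL-05-093 libraries. All tests against vehicle rest on these vehicle libraries, and the labels do not say whether the libraries of a condition came from separate cultures, so p-values may measure technical spread. Each fold change compares group means of log2(RPKM + 0.1) and has the standard error (SE) and Benjamini-Hochberg adjusted p of limma. Genes were called if over 2-fold with an adjusted p under 0.05, and 14264 genes, 9 of these 10 among them, passed the filter for testing. Of the osteocyte markers, 4 of 7 passed this filter, and Sost and Fgf23 had at most 3 reads in any library. The summed RPKM of the 7 osteocyte markers was 108 and 137 in vehicle libraries, 215 and 199 in PTH libraries and 160 and 169 in YKL-05-093 libraries, the gain being mostly Pdpn. Dmp1 had means of 0.899 RPKM in vehicle, 0.706 with PTH and 0.433 with YKL-05-093, not called (limma adjusted p = 0.791 and 0.504). Mepe did not pass the filter, with 4 and 2 reads in vehicle, 0 and 0 with PTH and 3 and 1 with YKL-05-093. The sum of the 5 osteoblast markers ranged from 396 to 556 and was mostly Col1a1, which hides changes within the list. After PTH, Sp7 fell from a mean of 45.8 to 11.6 RPKM and Bglap rose from 9.04 to 26.2 (limma adjusted p = 0.00201 and 0.0279). Runx2 went from 16.3 to 7.45 and the osteocyte marker Pth1r from 57.8 to 36.0 (adjusted p = 0.0625 and 0.150). Runx2 and Pth1r were called after neither treatment. Sp7 and Bglap were not called after YKL-05-093, where Sp7 had a mean of 26.0 RPKM (log2 fold change -0.83, limma adjusted p = 0.162). The osteocyte marker Phex went from 1.29 to 3.42 RPKM with PTH and 3.76 with YKL-05-093, not called (adjusted p = 0.302 and 0.242). Pdpn and the chondrocyte gene Col2a1 were called higher after PTH (adjusted p = 0.0152 and 0.0142), and the endothelial gene Kdr after YKL-05-093 (adjusted p = 0.0358). In PTH against YKL-05-093, limma called Sp7 lower (log2 difference -1.14, adjusted p = 1.81e-06). Bglap (1.16, 4.39e-06) and Col2a1 (1.02, 0.000128) were called higher. Under the 2-fold limit, Pdpn was higher (0.82, 5.45e-07), and Runx2 (-0.69, 1.05e-05) and Pth1r (-0.88, 2.52e-06) were lower. Sox9, Kdr and Pparg were also lower on the adjusted p. Dmp1, Phex, Col1a1 and Alpl had limma adjusted p of 0.209 or more there. Reads of Bglap may be shared with its near-identical neighbours. Among markers of other cells, 2 of 4 adipocyte genes, 2 of 4 chondrocyte genes, 1 of 3 blood cell genes, 1 of 3 endothelial genes and 0 of 3 muscle genes passed. The respective sums were at most 3.82, 3.50, 4.51, 1.79 and 0.422 RPKM, with Adipoq, Plin1, Acan, Cdh5, Myod1 and Myog at 3 reads or fewer in every library. The part of these cell-type levels in the IGF results was not tested, and in bulk RNA fewer cells making a transcript cannot be told apart from less transcript per cell.

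PTH raised Igf1 2.51-fold, the one call among the 9 tested genes. The next highest log2 fold changes after PTH were 0.89 for Igfbp4, 0.58 for Irs2 and 0.55 for Igfbp7, none of them called. Of the 9 genes, 8 had a positive log2 fold change after PTH and 8 after YKL-05-093, with Irs1 the exception both times. Among all genes tested, 45.7% were positive after PTH and 43.2% after YKL-05-093. Both comparisons share the vehicle libraries. The median log2 fold change of the 9 was 0.48 after PTH and 0.31 after YKL-05-093, against -0.03 and -0.04 over all genes tested. Across all genes, 1.90% were called after PTH and 0.666% after YKL-05-093, where 1 and 0 of the 9 were called. On the adjusted p alone, 2.19% of all genes and 1 of the 9 passed after PTH, and 0.666% and 0 after YKL-05-093. The limma fit for YKL-05-093 had 1244 genes at an unadjusted p under 0.05, 8.73% of those tested, with Igf1 and Irs1 among them.

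**Figure D1:**
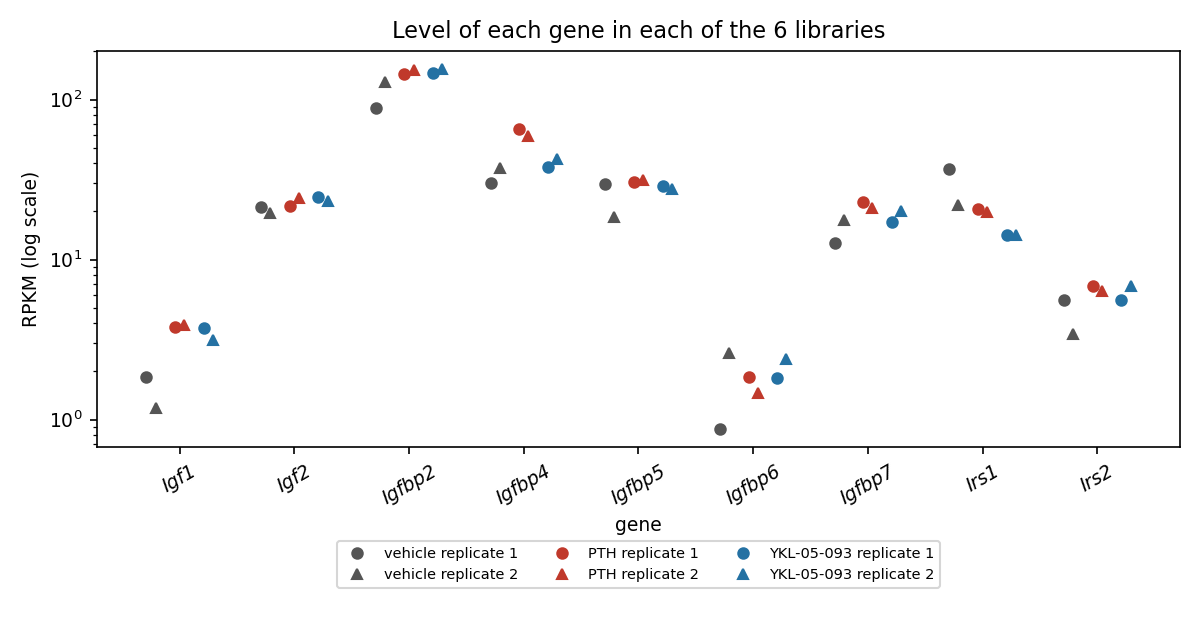
RPKM on a log axis of the 9 tested genes in each of the 6 libraries, with colour for the condition and circle or triangle for replicate 1 or 2. Igf1 lay at 1.18 to 1.84 in vehicle and at 3.14 to 3.90 in the treated libraries, Irs1 lay below vehicle in all 4 treated libraries, and Igfbp2 was highest in every library.

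Among the ligands, Igf1 rose after PTH and Igf2 held most of the ligand RNA. Igf1 (ENSMUSG00000020053, chr10:87858265-87937042, plus strand of GRCm38) read 1.84 and 1.18 RPKM in vehicle, 3.80 and 3.90 with PTH and 3.71 and 3.14 with YKL-05-093. These values stand on 318 to 813 reads per library. Every treated library lay above both vehicle libraries, and the PTH libraries lay above the YKL-05-093 libraries by less than the gap to vehicle. Mean Igf1 was 1.51 ± 0.460 RPKM in vehicle, 3.85 ± 0.0687 with PTH and 3.43 ± 0.402 with YKL-05-093 (SD, n = 2 each). Igf1 rose after PTH by a log2 fold change of 1.32 (limma SE 0.22, 95% interval 0.82 to 1.83, adjusted p = 0.0267). For YKL-05-093 the log2 fold change of Igf1 was 1.16 (limma SE 0.23, 95% interval 0.62 to 1.69, adjusted p = 0.102), which was not called. PTH against YKL-05-093 gave 0.17 on the log2 scale for Igf1 (95% interval -0.02 to 0.35, limma adjusted p = 0.281), so no difference between the treatments was shown.

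The Igf1 call after PTH was lost without either PTH library, at log2 fold changes of 1.34 and 1.31. It was kept without either vehicle library, at 1.62 and 1.03. These fits take their spread from the condition that kept both libraries. The median absolute log2 difference per gene was 0.333 in vehicle and 0.108 in PTH. Keeping or losing the call thus cannot show how firm the Igf1 change is. With a pseudocount of 1 RPKM the log2 fold change of Igf1 was 0.96, under the 2-fold limit, and the adjusted p was 0.185 with no filter on low values and 0.0915 with a spread trend on mean level. For YKL-05-093, Igf1 was called in 1 fit of all 6 libraries (limma adjusted p = 0.0295), with a replicate block (adjusted p = 0.000269) and once length and GC trends were removed (adjusted p = 0.00261). No other alternative called Igf1 after YKL-05-093. The adjusted p was 0.425 with no filter on low values and 0.255 with a spread trend on mean level. With 1 library left out, the log2 fold change of Igf1 after YKL-05-093 ran from 0.86 to 1.45.

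Igf2 (ENSMUSG00000048583, chr7:142650766-142666816, minus strand), the fetal growth factor that is imprinted in mice, read 21.2 and 19.6 RPKM in vehicle, 21.5 and 24.4 with PTH and 24.5 and 23.4 with YKL-05-093. Treated libraries were all above vehicle, the lowest of them by a small margin. Igf2 had a log2 fold change of 0.17 after PTH (95% interval -0.24 to 0.57, limma adjusted p = 0.764) and 0.23 after YKL-05-093 (-0.16 to 0.62, adjusted p = 0.814). In GENCODE, exons annotated to Gm49394 on the same strand share 3596 bases with Igf2. Whether the annotation used for counting held this overlap, and how reads there were counted, is not known here.

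The ratio of Igf2 to Igf1 fell into separate ranges for vehicle and treated libraries. It was 11.6 and 16.6 in vehicle, 5.66 and 6.27 with PTH and 6.61 and 7.45 with YKL-05-093. Igf1 made up 7.96% and 5.69% of ligand RPKM in vehicle, 15.0% and 13.8% with PTH and 13.1% and 11.8% with YKL-05-093. Igf2 was the main ligand transcript in all 6 libraries. The ratios were formed after the values had been seen, and with 2 libraries against 2 a two-sided exact permutation test cannot give a p below 0.333.

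Igf1 is shown with Igfbp4 and Irs1 by the 250 bases before a RefSeq transcript start (GRCm38.p6), since these 3 genes carry the differences described here and PTH signals through cyclic AMP. Capitals mark CGTCA, the reverse complement of the short cyclic AMP response element TGACG. The Igf1 start shown lies inside the annotated gene.
Igf1, chr10:87860861-87861110, plus strand: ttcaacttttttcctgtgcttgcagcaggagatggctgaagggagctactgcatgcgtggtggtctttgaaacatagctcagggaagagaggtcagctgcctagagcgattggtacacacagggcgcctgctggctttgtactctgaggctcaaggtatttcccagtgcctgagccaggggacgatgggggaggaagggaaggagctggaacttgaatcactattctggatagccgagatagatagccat
Igfbp4, chr11:99040994-99041243, plus strand: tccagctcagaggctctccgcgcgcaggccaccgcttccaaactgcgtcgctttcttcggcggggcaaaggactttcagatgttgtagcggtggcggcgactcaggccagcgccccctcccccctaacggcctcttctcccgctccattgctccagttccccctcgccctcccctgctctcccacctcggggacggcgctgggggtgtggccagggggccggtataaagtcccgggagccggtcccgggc
Irs1, chr1:82291440-82291689, minus strand: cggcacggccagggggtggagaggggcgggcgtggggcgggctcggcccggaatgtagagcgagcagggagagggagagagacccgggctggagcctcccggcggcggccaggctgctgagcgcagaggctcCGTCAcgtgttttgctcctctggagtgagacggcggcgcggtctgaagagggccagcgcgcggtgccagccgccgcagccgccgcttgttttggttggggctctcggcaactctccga

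Irs1 held the short element 118 bases before its start, and the Igf1 and Igfbp4 stretches held none. All 10 genes matched RefSeq promoters, with 14 windows of 300 bases (250 before and 50 after a start). TGACG, on either strand, was present in 3 of these 14 windows (21.4%), 1 of Irs1 and a pair of Igf2, against 20.8% of all 32851 windows. The full palindrome TGACGTCA, which contains TGACG, was present in 0 of the 14 and in 1.79% of all windows. A match is a run of letters and says nothing of binding.

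The binding proteins formed the most abundant set, and Igfbp2 led it in every library. Summed over Igfbp2 to Igfbp7, binding protein transcripts reached 162 and 204 RPKM in vehicle, 265 and 266 with PTH and 232 and 248 with YKL-05-093. All 4 treated libraries were above both vehicle libraries, and both PTH libraries were above both YKL-05-093 libraries. The mean was 183 ± 29.7 RPKM in vehicle, 265 ± 1.29 with PTH and 240 ± 11.6 with YKL-05-093 (SD, n = 2 each), 1.45-fold and 1.31-fold over vehicle. This sum was also formed after the values had been seen.

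**Figure D2:**
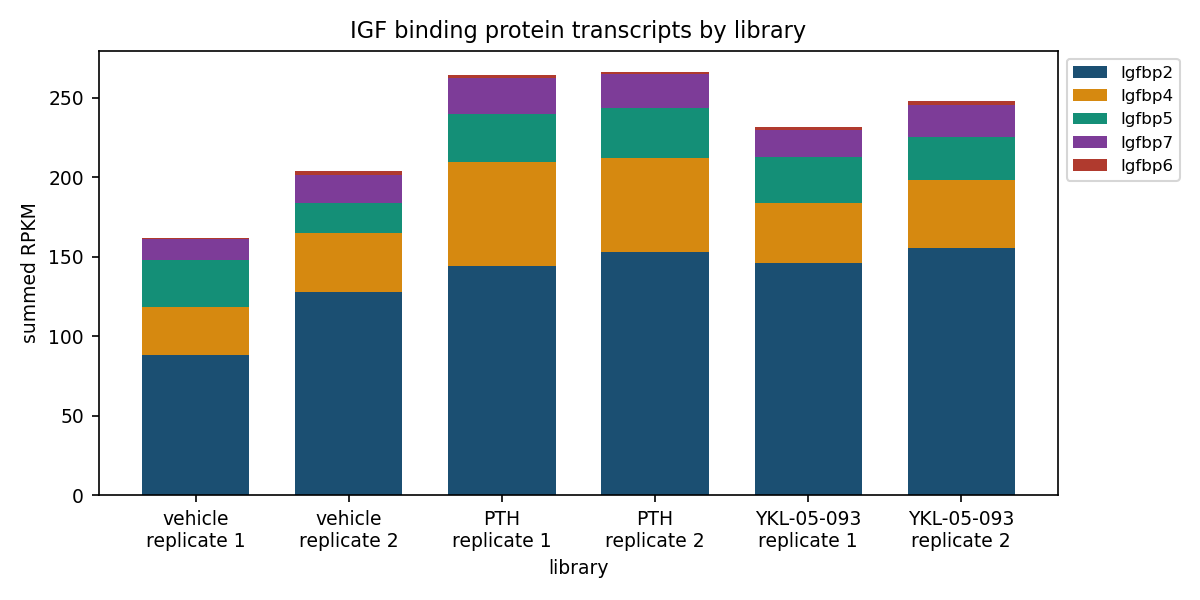
Stacked bars of the RPKM of Igfbp2, Igfbp4, Igfbp5, Igfbp7 and Igfbp6 in each of the 6 libraries, in linear RPKM from 0. The bars reach 162 and 204 in vehicle and 232 to 266 in treated libraries, and the Igfbp4 segment is widest after PTH.

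Igfbp2 (ENSMUSG00000039323, chr1:72824503-72852474, plus strand) encodes a carrier with an integrin-binding motif. It read 88.5 and 128 RPKM in vehicle, 144 and 153 with PTH and 146 and 156 with YKL-05-093. The treated libraries spanned a narrow range above vehicle, and the vehicle libraries were far apart. For Igfbp2 the log2 fold change was 0.48 after PTH (95% interval -0.03 to 0.99, limma adjusted p = 0.412) and 0.50 after YKL-05-093 (-0.01 to 1.02, adjusted p = 0.590). Igfbp2 made up between 54.4% and 63.0% of binding protein RPKM over the 6 libraries.

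Igfbp4 (ENSMUSG00000017493, chr11:99041244-99054392, plus strand) encodes a binding protein that restrains IGF action until the protease pappalysin cleaves it. It read 30.2 and 37.3 RPKM in vehicle, 65.4 and 59.4 with PTH and 38.0 and 42.2 with YKL-05-093. PTH libraries stood apart from the other 4, and YKL-05-093 libraries began just above the higher vehicle library. Mean Igfbp4 was 33.7 ± 4.99 RPKM in vehicle, 62.4 ± 4.28 with PTH and 40.1 ± 3.00 with YKL-05-093 (SD, n = 2 each). The log2 fold change of Igfbp4 was 0.89 after PTH (limma SE 0.19, 95% interval 0.45 to 1.33, adjusted p = 0.0681) and 0.25 after YKL-05-093 (-0.18 to 0.69, adjusted p = 0.817).

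Between the treatments, Igfbp4 was 1.56-fold higher after PTH than after YKL-05-093, a log2 difference of 0.64 (limma SE 0.07, 95% interval 0.48 to 0.80, adjusted p = 2.39e-05). It passed the p threshold but not the 2-fold limit. The direct comparison leaves the vehicle libraries out, and its threshold on p alone was passed by 9.94% of all genes and by 2 of the 9 IGF genes, Igfbp4 and Irs1. Without either PTH library the log2 difference of Igfbp4 was 0.57 and 0.71 (adjusted p = 0.179 and 0.151), and in 1 fit of all 6 libraries it was 0.64 (adjusted p = 0.135), where the spread of the vehicle libraries enters. Against vehicle, the only alternative that called Igfbp4 after PTH left out vehicle replicate 2, at a log2 fold change of 1.04. The log2 fold change of Igfbp4 was 0.74 without vehicle replicate 1, and 0.82 and 0.96 without PTH replicate 1 and 2. As a share of binding protein RPKM, Igfbp4 was 18.7% and 18.3% in vehicle, 24.7% and 22.3% with PTH and 16.4% and 17.0% with YKL-05-093. The treatments lay on opposite sides of vehicle in this share only, since the RPKM of Igfbp4 was above vehicle in every treated library. The share was formed after the values had been seen.

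Igfbp5 (ENSMUSG00000026185, chr1:72857932-72874884, minus strand) neighbours Igfbp2 and encodes the binding protein best known for its affinity to bone mineral. Its RPKM was 29.6 and 18.3 in vehicle, 30.4 and 31.4 with PTH and 28.8 and 27.5 with YKL-05-093. Vehicle replicate 1 sat with the treated libraries and vehicle replicate 2 below all of them. Igfbp5 had a log2 fold change of 0.41 after PTH (95% interval -0.16 to 0.97, limma adjusted p = 0.573) and 0.27 after YKL-05-093 (-0.30 to 0.85, adjusted p = 0.852). Igfbp7 (ENSMUSG00000036256, chr5:77349240-77408041, minus strand), a matrix protein that binds IGFs weakly, read 12.7 and 17.7 RPKM in vehicle, 22.9 and 21.2 with PTH and 17.1 and 20.1 with YKL-05-093. PTH libraries were highest, and the other 2 conditions overlapped. For Igfbp7 the log2 fold change was 0.55 after PTH (95% interval 0.09 to 1.01, limma adjusted p = 0.283) and 0.31 after YKL-05-093 (-0.18 to 0.79, adjusted p = 0.804).

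Igfbp6 (ENSMUSG00000023046, chr15:102144362-102149511, plus strand), a carrier that prefers IGF2, was near the bottom of the range. It read 0.876 and 2.61 RPKM in vehicle, 1.84 and 1.47 with PTH and 1.82 and 2.39 with YKL-05-093, on 17 to 81 reads per library. The vehicle libraries enclosed all treated values, and the log2 fold change of Igfbp6 after PTH was 0.10 with a 95% interval from -0.99 to 1.19 (limma adjusted p = 0.960). After YKL-05-093 it was 0.43 with an interval from -0.69 to 1.54 (adjusted p = 0.875). Its sign turned in several alternatives, so no direction can be given. Igfbp3 (ENSMUSG00000020427, chr11:7206086-7213923, minus strand), the main carrier in the circulation, had 0 reads in the 4 vehicle and PTH libraries and 2 and 3 reads after YKL-05-093. With a floor of 3 reads, or 0.0343 to 0.0548 RPKM at its length, no difference in Igfbp3 was detectable at this depth.

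Neither adaptor was called against vehicle, and the log2 fold changes were negative for Irs1 and positive for Irs2 after both treatments. Irs1 (ENSMUSG00000055980, chr1:82233101-82291416, minus strand), an adaptor central to insulin and IGF signalling, read 36.8 and 21.9 RPKM in vehicle, 20.7 and 19.9 with PTH and 14.3 and 14.3 with YKL-05-093. The conditions did not overlap, with the YKL-05-093 libraries lowest and the lower vehicle library close to PTH. Mean Irs1 was 29.4 ± 10.6 RPKM in vehicle, 20.3 ± 0.540 with PTH and 14.3 ± 0.00389 with YKL-05-093 (SD, n = 2 each). The log2 fold change of Irs1 was -0.48 after PTH (limma SE 0.26, 95% interval -1.09 to 0.12, adjusted p = 0.508) and -0.98 after YKL-05-093 (SE 0.26, -1.59 to -0.37, adjusted p = 0.236).

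Between the treatments, Irs1 was 1.41-fold lower after YKL-05-093 than after PTH, a PTH minus YKL-05-093 log2 difference of 0.50 (limma SE 0.06, 95% interval 0.36 to 0.63, adjusted p = 6.84e-05). It passed on p but not on the 2-fold limit. Without either PTH library the log2 difference of Irs1 was 0.47 and 0.52 (adjusted p = 0.143 and 0.132), and in 1 fit of all 6 libraries it was 0.50 (adjusted p = 0.614). Without vehicle replicate 2, Irs1 was called lower after YKL-05-093 (log2 fold change -1.35), and no other alternative called it. The log2 fold change of Irs1 was -0.61 without vehicle replicate 1 and -0.98 without either YKL-05-093 library. With a replicate block and with length and GC trends removed, Irs1 after YKL-05-093 stood at -0.98 and -0.88 (adjusted p = 0.0344 and 0.00993), under the 2-fold limit. An antisense gene, Gm9747, shares 2822 exonic bases with Irs1, and whether the counting used strand is not given in the sources used here. Antisense overlaps of the other genes are short, with 98 bases for Igf2 (Igf2os), 85 for Igfbp7 (Polr2b) and 162 for Irs2 (9530052E02Rik).

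Irs2 (ENSMUSG00000038894, chr8:10984681-11008458, minus strand), an adaptor known for its role in insulin-producing cells and liver, read 5.55 and 3.43 RPKM in vehicle, 6.88 and 6.32 with PTH and 5.56 and 6.87 with YKL-05-093. Its values were higher in treated libraries, by next to nothing between vehicle replicate 1 and the lowest of them. Irs2 had a log2 fold change of 0.58 after PTH (95% interval 0.03 to 1.14, limma adjusted p = 0.340) and 0.49 after YKL-05-093 (-0.10 to 1.08, adjusted p = 0.686).

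Within a library, Irs1 exceeded Irs2 6.63-fold and 6.38-fold in vehicle. The ratio was 3.00 and 3.15 with PTH, and 2.58 and 2.09 with YKL-05-093. Although Irs1 and Irs2 each varied between the vehicle libraries, their ratio did so little, with means of 6.51 ± 0.180 in vehicle, 3.08 ± 0.102 with PTH and 2.33 ± 0.347 with YKL-05-093 (SD, n = 2 each). The ratio in treated libraries was 0.473 and 0.359 of that in vehicle. Its absolute size rests on the length of Irs2, but the comparison of conditions does not. It was chosen after the values had been seen, and an exact permutation test of 2 against 2 libraries has a smallest two-sided p of 0.333.

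**Figure D3:**
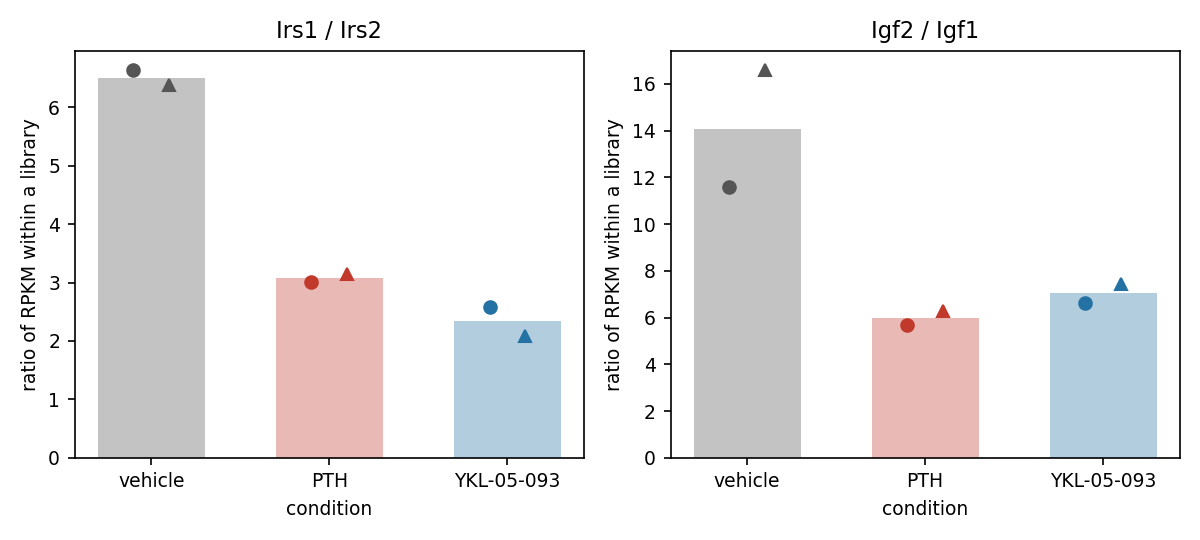
Ratio of RPKM within a library for Irs1 over Irs2 and for Igf2 over Igf1, on linear axes from 0, by condition, with bars at the mean and a circle or triangle for replicate 1 or 2. Vehicle libraries lie at 6.38 and above for Irs1 over Irs2 and at 11.6 and above for Igf2 over Igf1, and treated libraries at no more than 3.15 and 7.45.

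Counted by library, 7 of the 9 tested genes had both PTH libraries above both vehicle libraries and 1 had them below, where 19.1% and 24.0% of all genes did. For YKL-05-093 these were 5 above and 1 below, where all genes gave 15.7% and 22.1%. PTH libraries were above YKL-05-093 libraries in 5 genes and below in 0, against 26.3% and 23.7% of all genes. In that comparison limma called 0 of the 9, where 1.21% of all genes were called. An unadjusted p under 0.05 was reached by 3 of the 9 and by 22.3% of all genes. The 7 tested genes other than Igfbp4 and Irs1 had direct log2 differences of -0.33 (Igfbp6) to 0.24 (Igfbp7), with limma adjusted p of 0.142 or more. Their widest 95% interval was that of Igfbp6, from -0.86 to 0.20, and the interval of Igfbp2 ran from -0.17 to 0.12.

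**Figure D4:**
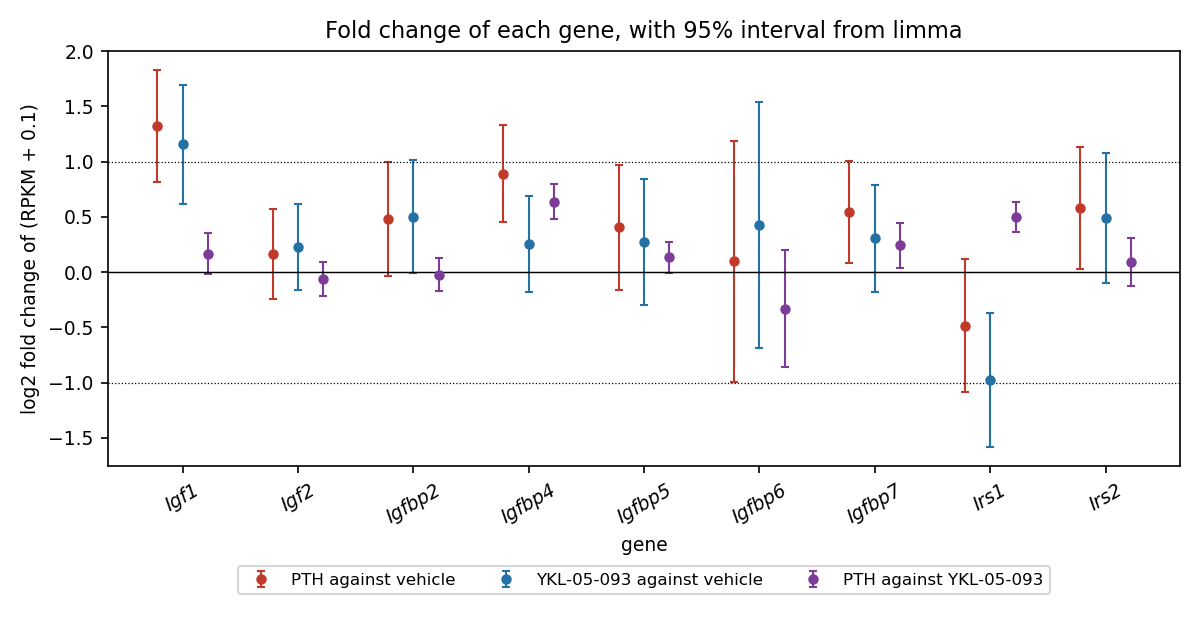
Log2 fold change of RPKM + 0.1 for the 9 tested genes in the 3 comparisons, with 95% intervals from limma and dotted lines at 2-fold. Igf1 lies highest against vehicle (1.32 after PTH and 1.16 after YKL-05-093), Irs1 is below 0 against vehicle for both treatments, and Igfbp4 (0.64) and Irs1 (0.50) stand above 0 in PTH against YKL-05-093.

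Igfbp2 stood first in every condition and Igfbp4 second. In vehicle the order went on with Irs1, Igfbp5, Igf2, Igfbp7, Irs2, Igfbp6, Igf1 and Igfbp3, and the libraries of neighbours overlapped from Igfbp4 through Igf2 and between Igfbp6 and Igf1. After PTH, Irs1 moved from place 3 to place 6, below Igfbp5, Igf2 and Igfbp7, with only Igf2 and Igfbp7 overlapping as neighbours. The order after YKL-05-093 was that after PTH, with no overlapping neighbours, and Igf1 stood above Igfbp6 after both treatments.

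The vehicle libraries differed between the longest and the shortest genes of this set. Igf1, Irs1, Igf2 and Igfbp5, the 4 with the greatest lengths (4730 to 9896 bases), were higher in vehicle replicate 1, by 0.11 (Igf2) to 0.75 (Irs1) on the log2 scale. The 3 shortest, Igfbp2, Igfbp7 and Igfbp6, were higher in replicate 2, with replicate 1 minus replicate 2 at -0.53, -0.47 and -1.47. The genes between them went against this order, with the difference at -0.30 for Igfbp4 (4493 bases) and 0.68 for the shorter Irs2 (4022 bases). Across 14264 genes the correlation of this difference with log2 length was 0.285 in vehicle, 0.016 in PTH and -0.117 in YKL-05-093, where genes share libraries and are no replicates. The part of this difference in the results was not tested, and the alternative with length and GC trends removed gave 1.49 for Igf1 after PTH, with Igf1 called after both treatments.

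**Figure D5:**
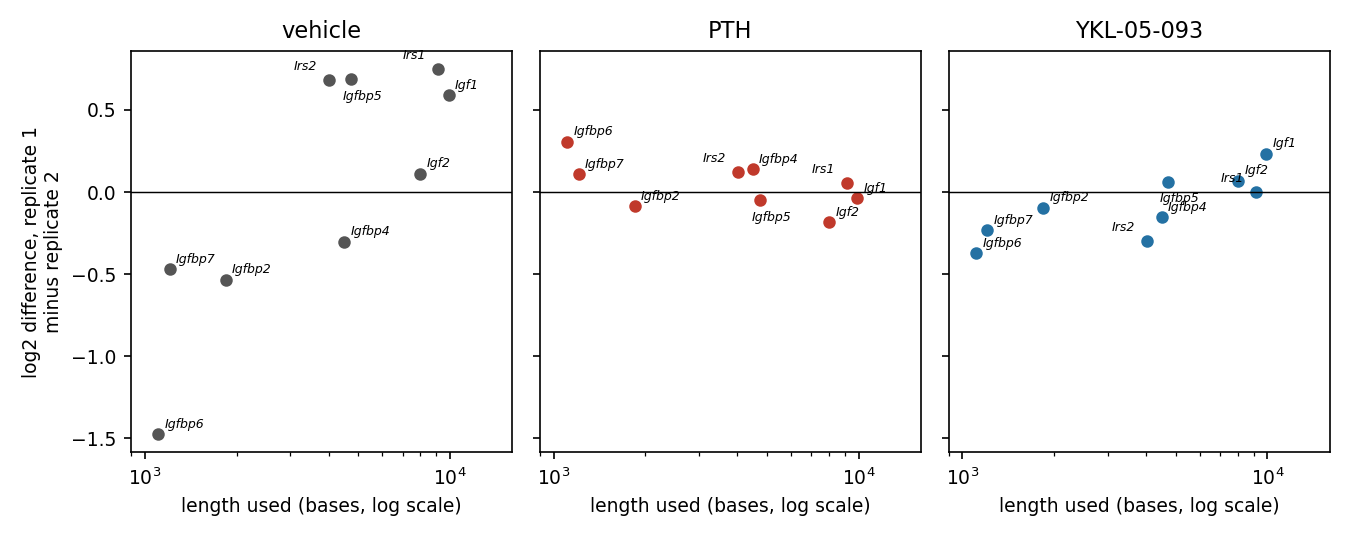
Log2 difference in RPKM between replicate 1 and replicate 2 of each condition, plotted against the length used for each of the 9 tested genes in bases on a log axis, 1 panel per condition. Vehicle differences run from -1.47 for Igfbp6 to 0.75 for Irs1, with the 4 longest genes above 0 and the 3 shortest below, and those of PTH and YKL-05-093 lie closer to 0 except for Igf2 in PTH (-0.18 against 0.11).

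For the wider IGF pathway, a list of 41 receptors, binding protein regulators and signalling genes held 34 that were tested. Of these limma called 1 after PTH and 0 after YKL-05-093, where 1.90% and 0.666% of all genes were called. On p alone, 2 of the 34 (5.88%) passed after PTH, Stc2 and Grb14, against 2.19% of all genes. After each treatment, 7 of the 34 had an unadjusted limma p under 0.05. Of all genes, 13.4% did so after PTH and 8.73% after YKL-05-093. The median log2 fold change of the 34 was -0.10 and -0.09, with 14 and 11 of 34 positive. Among all genes tested, 45.7% and 43.2% were positive. Igfbp1, the liver binding protein, had 0 reads in every library, and Insrr, Igfbpl1, Stc1, Irs3, Irs4 and Pik3cb also did not pass the filter.

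The receptors showed no call. Igf1r, the signalling receptor for both ligands, read 10.1 and 5.90 RPKM in vehicle, 9.78 and 9.53 with PTH and 7.82 and 7.84 with YKL-05-093. Its treated values lay within the spread of vehicle. Igf2r, which clears IGF2, read 32.4 and 16.5 in vehicle and 17.6 to 21.5 in treated libraries, and the insulin receptor Insr read 4.61 and 3.03 in vehicle and 4.32 to 4.69 in treated libraries. The log2 fold changes after PTH were 0.32 (Igf1r), -0.34 (Igf2r) and 0.32 (Insr), and limma gave adjusted p of 0.63 or more.

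Stc2, encoding a stanniocalcin that inhibits pappalysin, was the called gene of the list. Its RPKM was 1.17 and 1.13 in vehicle, 0.491 and 0.482 with PTH and 0.530 and 0.641 with YKL-05-093, and vehicle was clearly apart from both treatments. PTH lowered Stc2, which fell by 1.09 on the log2 scale (limma SE 0.18, adjusted p = 0.0256), and its log2 fold change after YKL-05-093 was -0.87 (adjusted p = 0.129). Without either PTH library the log2 fold change of Stc2 was -1.10 and -1.08 (adjusted p = 0.427 and 0.528). The call was also lost with a pseudocount of 1 RPKM (-0.53, adjusted p = 0.0958), with no filter (adjusted p = 0.111), with a spread trend on mean level (adjusted p = 0.225) and with length and GC trends removed (-0.99, under 2-fold). Grb14, an adaptor that inhibits insulin receptor signalling, read 5.70 and 5.06 RPKM in vehicle, 2.92 and 2.92 with PTH and 3.57 and 4.27 with YKL-05-093. The libraries of the 3 conditions did not overlap. Grb14 had a log2 fold change of -0.86 after PTH (limma SE 0.16, adjusted p = 0.0408), within the p threshold but under 2-fold, and without either PTH library Grb14 stayed at -0.86 with an adjusted p of 0.752 and 0.856.

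In PTH against YKL-05-093, limma called 0 of the 34, where 1.21% of all genes were called. An unadjusted p under 0.05 was reached by 13 of the 34 and by 22.3% of all genes. On the adjusted p alone, 8 of the 34 (23.5%) passed, where 9.94% of all genes did. Higher after PTH were Igf1r (log2 difference 0.30, limma adjusted p = 0.0172), the protease gene Pappa2 (0.29, 0.0166) and the phosphatase gene Ptpn1 (0.35, 0.00406). Among those lower after PTH were the adaptors Grb2 (-0.31, 0.0289) and Grb14 (-0.41, 0.018), the lipid phosphatase gene Inppl1 (-0.43, 0.000921) and the transcription factor Foxo3 (-0.41, 0.000567). With any 1 of the 4 libraries left out, none of these 8 had an adjusted p under 0.05, in fits with a single library on one side. The log2 differences kept their signs, at 0.28 to 0.32 for Igf1r, 0.32 to 0.38 for Ptpn1 and -0.46 to -0.37 for Foxo3.

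The genes whose pattern over the 6 libraries was most like that of Igf1, by Pearson's r of log2(RPKM + 0.1) among 14255 genes, were Zfp949 (r = 0.995), Zfp235 (0.995) and Zfp874b (0.994), and 90 genes exceeded 0.95. Zfp949, the first, read 1.84 and 1.53 RPKM in vehicle, 2.79 and 2.93 with PTH and 2.66 and 2.53 with YKL-05-093. The points of such a correlation are 6 libraries in 3 conditions, and it is given as a description.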

How the data were processed

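Total RNA of the 6 Ocy454 samples went through rRNA depletion before strand-specific library preparation. Base calls came from CASAVA 1.7 per the submitters' notes. The authors mapped with STAR (mm10/GRCm38), counted per gene with HTSeq and an Ensembl annotation, and deposited RPKM values for 39179 genes, linear and with no factor between libraries. The tables of single libraries hold the same values. Reads were worked back from the RPKM steps: all 26214 genes above 0 came out whole within 0.001 reads in 6 libraries, and 99.7% of library totals was recovered. These reads served for depth, the floor of 3 reads (counting error only) and the trend of the spread.

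limma 3.58.1 in R 4.3.3 was fitted to log2(RPKM + 0.1) of the 4 libraries of each comparison, for genes reaching 0.5 RPKM in 2 or more libraries, with adjustment over all genes tested. The fit was tested on simulated data: of 200 changed genes at folds of 3 or 4 in PTH against vehicle, 89.9% were called over 5 simulations of 14223 genes. The simulated libraries all had the same spread and no trend in length, unlike the real vehicle libraries, and smaller folds were not simulated. This share therefore does not show how many changes the real comparisons against vehicle can find. Positions and overlaps are from GENCODE on GRCm38, which held 96.2% of the identifiers, and promoters from RefSeq. The 10 genes, the pathway list, the markers and the setting of the test were chosen with earlier results of these data known. Named are all 10 genes, pathway genes with an adjusted p under 0.05 in any comparison (1 is not reported here), the receptors, and the 3 genes most like each called gene. Replicate numbers were not taken to pair libraries. Alternatives changed the pseudocount, filter, spread model, scaling, replicate block, libraries left out, fold limit and voom on recovered reads, and the removal of trends in length and GC content was chosen after seeing the data.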

Additional observations from a re-analysis of the deposited data

How the results depend on the processing

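The number of called genes depended on the setting. After PTH limma called 271 genes, 0 with no filter on low values (2331 at an unadjusted p under 0.05), 160 with a spread trend on mean level and 23 to 670 with 1 library left out. After YKL-05-093 it called 95, 56 with a pseudocount of 1 RPKM, 0 with no filter (1743 at an unadjusted p under 0.05), 52 with a filter at 0.1 RPKM, 6 with a spread trend on mean level, 173 in 1 fit of all 6 libraries, 174 with length and GC trends removed and 16 to 321 with 1 library left out. For PTH against YKL-05-093 it called 173, 98 with a pseudocount of 1 RPKM, 101 in 1 fit, 1417 with no fold limit and 0 to 158 with 1 library left out, the 0 being without PTH replicate 1 (2141 at an unadjusted p under 0.05) or 2 (2020). Fewer libraries or more genes tested act on these counts by construction, and other causes were not tested.

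Of the 9 IGF genes, the PTH comparison called 1, and 0 with a pseudocount of 1 RPKM, with no filter and with a spread trend on mean level, where 1878, 2331 and 1800 of all genes had an unadjusted p under 0.05, and 0 to 2 with 1 library left out. For YKL-05-093 it called 0, 1 in 1 fit of all 6 libraries, 1 with length and GC trends removed and 0 to 1 with 1 library left out. In PTH against YKL-05-093 2 passed with no fold limit. With the replicate block, 434, 211 and 195 genes and 1, 1 and 0 of the 9 were called in the 3 comparisons. The numbers were not taken as pairs, since deviations of same-numbered libraries correlated at -0.03, -0.05 and -0.05.

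The sign turned for Igfbp6 after PTH with voom (-0.020) and with length and GC trends removed (-0.020). With 1 library left out, log2 fold changes after PTH crossed 0 for Igfbp6 (-0.64 to 0.84; below 0 without vehicle replicate 1, and at -0.055 without PTH replicate 1), Igf1r (-0.061 to 0.70; below 0 without vehicle replicate 2) and Igf2r (-0.83 to 0.14; above 0 without vehicle replicate 1). After YKL-05-093 they crossed 0 for Igfbp5 (-0.071 to 0.62), Igf1r (-0.36 to 0.40) and Insr (-0.081 to 0.51), below 0 without vehicle replicate 2, for Igfbp6 (-0.31 to 1.17), below 0 without vehicle replicate 1, and for Igf2r (-0.65 to 0.32), above 0 without vehicle replicate 1. In PTH against YKL-05-093 they crossed 0 for Igf2 (-0.15 to 0.028), Igfbp2 (-0.071 to 0.023) and Irs2 (-0.058 to 0.24). With 1 library left out, the lone library of its condition was assumed to vary like the others. Calls in such fits thus rest on the spread of the condition with both libraries. The length and GC alternative was chosen after seeing the data. Scaling by median ratio kept every sign and call of the 9 genes.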
